A study of Homo sapiens with 33 samples.

Results

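The lysosome and V-ATPase genes examined here were 51 genes, listed by symbol, out of the 58302 genes of the expression matrix. All 51 were found under their symbol and all passed the filter on low values. They comprised 7 lysosomal membrane proteins, 11 cathepsins and other proteases, 14 glycosidases and sulfatases, 6 genes of lipid handling, 2 regulators (TFEB and TFE3) and 11 subunits or accessory proteins of the V-ATPase. Expression was measured by RNA-seq in 33 libraries of 6 established human cell lines. Sensitive lines were the malignant pleural mesothelioma (MPM) lines H2052 (2 pairs), H2452, H28 and MSTO-211H (3 pairs each). Resistant lines were MPP89 (2 pairs), an MPM line with mutated RB1, and MeT-5A (1 pair and 1 untreated library), mesothelial cells immortalised with SV40 antigens, which inactivate pRb. Each pair set cells in 0.1% DMSO against cells in 1 µM palbociclib, an inhibitor of CDK4 and CDK6, for 9 or 10 days. Of the sensitive pairs, 7 lasted 9 days and 4 lasted 10 days. All resistant pairs lasted 9 days, and the experiments with a washout lasted 10 days before it. Each sensitive line also had 1 library of cells released from palbociclib for 48 h (washout). Each line is a single culture line and not a panel of donors. The study describes the experiments of a line as independent. In fits of single lines, p-values measure the spread between these pairs. Fits over several lines pool the pairs, so differences between lines also enter the spread, except in the test of differences among lines. In the washout fits, with 1 experiment per line, p-values measure the spread between lines. None of them measures the spread over a wider set of lines. The deposited values were scaled, with column totals of 20007662 to 20021400. The reads per library, estimated from the steps of low values for 22 libraries, ran from 12770000 to 19930000 with a median of 16790000. The estimate can be made only below about 20000000 reads. The highest value and the median therefore do not cover libraries near or above that depth. At the lowest depth 1 read was worth 1.57 CP20M (the count scaled to a library of 20000000 reads). Of the members, 45 had at least 100 CP20M in all 22 libraries of the sensitive pairs.

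Lysosomes are the acidic compartment in which hydrolases degrade proteins, glycans and lipids. The V-ATPase pumps protons into their lumen through a membrane sector (V0) driven by a cytosolic ATP-hydrolysing sector (V1). TFEB and TFE3 are transcription factors that bind the CLEAR element, built on the letters TCACGTG, in the promoters of many lysosomal genes, and they are controlled largely by moving between the cytosol and the nucleus. Senescence-associated β-galactosidase, the stain used for senescent cells, reads the lysosomal enzyme encoded by GLB1. Proliferation markers stayed high with palbociclib in the resistant lines, so the comparison also covered cells that kept on cycling with the drug.

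The promoters of 6 members are shown because they carry the motif to which TFEB and TFE3 bind. Each sequence is the stretch just before the annotated start, from RefSeq on GRCh38.p14, read 5′ to 3′ on the strand of the gene, with TCACGTG, or its reverse complement, in capitals.
LAMP1 (chr13:113297039-113297238, plus strand): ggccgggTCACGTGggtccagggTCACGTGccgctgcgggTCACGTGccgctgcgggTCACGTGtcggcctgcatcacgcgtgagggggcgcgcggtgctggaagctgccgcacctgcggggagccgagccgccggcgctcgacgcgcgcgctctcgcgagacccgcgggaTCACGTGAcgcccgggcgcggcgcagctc
MCOLN1 (chr19:7522524-7522623, plus strand): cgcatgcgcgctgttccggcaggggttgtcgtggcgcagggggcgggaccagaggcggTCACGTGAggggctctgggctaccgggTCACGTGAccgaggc
CTSA (chr20:45891235-45891334, plus strand): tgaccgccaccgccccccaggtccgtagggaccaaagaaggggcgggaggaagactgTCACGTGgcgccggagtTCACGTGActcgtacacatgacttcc
ATP6V0D1 (chr16:67481158-67481257, minus strand): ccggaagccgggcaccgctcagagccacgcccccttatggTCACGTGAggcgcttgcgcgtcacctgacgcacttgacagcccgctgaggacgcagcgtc
NEU1 (chr6:31862822-31862971, minus strand): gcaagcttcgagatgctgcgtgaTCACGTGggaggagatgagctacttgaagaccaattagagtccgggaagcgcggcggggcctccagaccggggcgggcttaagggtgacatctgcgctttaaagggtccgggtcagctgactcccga
CLN3 (chr16:28492075-28492174, minus strand): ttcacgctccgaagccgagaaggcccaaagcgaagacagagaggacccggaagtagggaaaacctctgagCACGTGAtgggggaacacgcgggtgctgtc
The LAMP1 stretch of 200 bases held the motif at 5 places and those of MCOLN1 and CTSA at 2 places each. Promoter windows of 300 bases (250 before the start and 50 after it) were matched for 36 of the 51 members. TCACGTG, searched on both strands, was present in 9 of the 36 (25%) and in 3.71% of the 35116 windows of all genes. The 9 were LAMP1, MCOLN1, CLN3, CTSA, CTSD, CTSF, GAA, NEU1 and ATP6V0D1. CACGTG alone, which every TCACGTG contains, was present in 10 members (27.8%) and in 7.26% of all windows. TCACGTG followed by A, which reads the same on both strands, was present in 6 members (16.7%) and in 0.98% of all windows.

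Over the 11 pairs of sensitive lines, palbociclib raised 22 of the 51 genes and lowered none (fold change above 1.5 or below 1/1.5 and FDR under 0.05, limma). Among all 17803 genes tested, 5.58% were called higher and 9.37% lower. This balance turned with the scaling, to 9.25% higher and 5.42% lower with median-of-ratios scaling, where 33 members were called higher, and to 7.71% and 6.38% with upper-quartile scaling, where 28 were. Neither scaling gave a member called lower. With no limit on the fold, 41 members were higher and 2 lower at FDR under 0.05, against 14.6% and 33.7% of all genes, and 8 did not pass. The median log2 fold change was 0.53 over the members and -0.11 over all genes, and 46 members had a positive value. Here and below, a log2 fold change is a difference of log2(CP20M + 10), which understates the change of low genes. Since the median gene moved, the member median was also read against it. The difference was 0.64 with the deposited scaling, 0.65 with median-of-ratios scaling and 0.64 with upper-quartile scaling. Within single pairs the member median ran from 0.23 in H28 pair 2 to 0.79 in MSTO-211H pair 3. All 11 pairs thus had positive member medians, while the median of all genes was negative in each of them. 20 members were higher in all 11 pairs, against 4.35% of all genes, and none was lower in all 11, against 14.4%.

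**Figure D1:**
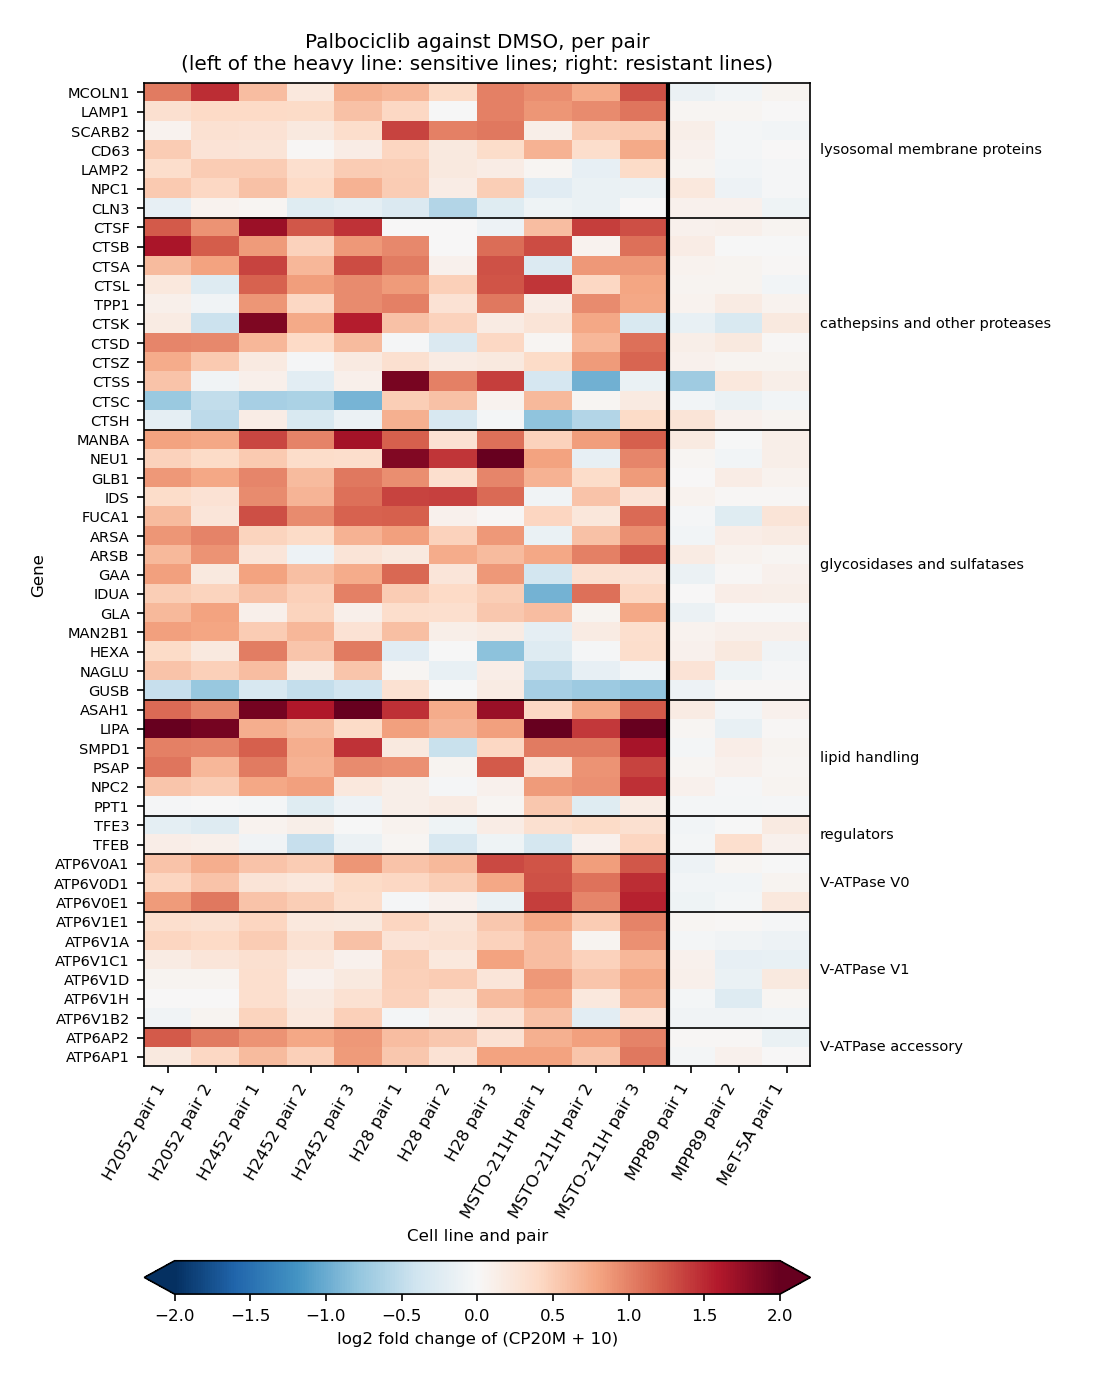
Log2 fold change of (CP20M + 10), palbociclib against DMSO, for the 51 genes (rows, by role and then by fitted change) in the 14 pairs (columns), with colours limited at -2 and 2. Red prevails in the 11 columns of sensitive lines, whereas the 3 columns of MPP89 and MeT-5A are close to white.

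Genes of lipid handling held the largest rises, with 4 of 6 called. ASAH1, the acid ceramidase, was at 647 and 568 CP20M with DMSO and 1425 and 1130 with palbociclib in H2052, and at 1837, 734 and 1484 against 6970, 2242 and 7100 in H2452. In H28 ASAH1 was at 1817, 1633 and 1442 with DMSO and at 5023, 2731 and 4782 with palbociclib, and in MSTO-211H at 901, 581 and 578 against 1201, 1004 and 1370. In every sensitive line each ASAH1 value with palbociclib lay above every value with DMSO. The fold change of ASAH1 was 2.45 (log2 1.29, SE 0.15, adjusted p = 1.94e-05). LIPA, the acid lipase that hydrolyses cholesteryl esters, was at 4102 and 5408 with DMSO and 18635 and 20442 with palbociclib in H2052, and at 1400, 921 and 1213 against 7452, 2481 and 4916 in MSTO-211H. LIPA was at 3291, 3230 and 2826 against 5481, 5033 and 3680 in H2452, and at 397, 367 and 363 against 707, 591 and 652 in H28. Its values did not overlap between conditions in any sensitive line, and its mean log2 fold change was 2.05 in H2052 and 0.58 in H2452. Over all pairs LIPA rose 2.42-fold (log2 1.27, SE 0.19, adjusted p = 0.000152). SMPD1, the acid sphingomyelinase, had a median of 739 CP20M (157 to 1461) over the 11 DMSO libraries and of 1531 (170 to 2944) over the 11 palbociclib libraries. It rose by 0.84 on the log2 scale (adjusted p = 0.00079), although its mean in H28 was 0.05. PSAP, the precursor of the saposins that present sphingolipids to hydrolases, was the most abundant member per kilobase of exon. Its median was 38130 CP20M (8956 to 48233) with DMSO and 50034 (18401 to 93533) with palbociclib, a log2 change of 0.83 (adjusted p = 7.15e-05). The ranges of PSAP and SMPD1 over the pooled lines overlapped, but PSAP was separated within each line. NPC2, a cholesterol carrier of the lumen, had a log2 change of 0.57 (adjusted p = 0.00193), below the fold limit, and PPT1, a thioesterase, one of 0.03 (adjusted p = 0.718).

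Among glycosidases and sulfatases, 7 of 14 were called higher. GLB1, on chromosome 3 at 32996609 to 33097202 (GRCh38, minus strand), was at 982 and 969 CP20M with DMSO and 1800 and 1672 with palbociclib in H2052, and at 3046, 2725 and 3038 against 5994, 4232 and 6295 in H2452. GLB1 was at 1751, 1824 and 1470 against 3345, 2303 and 2888 in H28, and at 1189, 960 and 991 against 1924, 1239 and 1804 in MSTO-211H. No GLB1 value with palbociclib overlapped those with DMSO in the same line. The rise of GLB1 was 1.70-fold (log2 0.77, SE 0.07, adjusted p = 5.00e-06), and GLB1 was 1 of 2 members called in each of the 4 lines on its own, with ATP6V0A1. MANBA, the β-mannosidase, had a median of 306 CP20M (244 to 595) with DMSO and of 630 (364 to 884) with palbociclib, and rose by 0.97 on the log2 scale (adjusted p = 1.88e-05). NEU1, a sialidase, was at 866, 798 and 601 with DMSO and 3162, 2172 and 3565 with palbociclib in H28, and at 1252, 610 and 692 against 2188, 541 and 1366 in MSTO-211H. In H2052 NEU1 was at 771 and 699 against 1069 and 914, and in H2452 at 2703, 1334 and 2765 against 3878, 1726 and 3531. Its mean log2 fold change was 1.95 in H28 and between 0.41 and 0.53 in the other lines, and 1 pair of MSTO-211H had a lower value with palbociclib. Over 11 pairs NEU1 rose by 0.87 (SE 0.21, adjusted p = 0.00385), but without the H28 pairs its log2 change was 0.46 (adjusted p = 0.00727), below the fold limit. Over the 25 alternative settings its adjusted p ranged from 0.00133 to 0.0918. IDS (0.73), FUCA1 (0.67), ARSA (0.63) and ARSB (0.60) were also called. ARSB lost its call in 9 of the 25 alternative settings, ARSA and FUCA1 in 3 each and IDS in 2. GLA, GAA, IDUA and MAN2B1 were higher at FDR under 0.05 but below 1.5-fold, with log2 changes from 0.39 to 0.51. HEXA (0.20) and NAGLU (0.16) did not pass.

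GUSB, the β-glucuronidase, was the glycosidase with a change in the other direction. It was at 1349, 1441 and 1496 CP20M with DMSO and at 848, 871 and 865 with palbociclib in MSTO-211H, and at 687 and 651 against 499 and 381 in H2052. GUSB was at 906, 822 and 822 against 727, 591 and 625 in H2452, and at 673, 673 and 781 against 832, 666 and 876 in H28. The values did not overlap in MSTO-211H, H2052 and H2452, where they were lower with palbociclib, and they overlapped in H28. Such a separation downward was common, at 24.3% of all genes in MSTO-211H, 52.1% in H2052 and 27.3% in H2452. Over 11 pairs the log2 change was -0.37 (adjusted p = 0.0102), and it was called only in MSTO-211H. Over the 25 alternative settings the log2 change lay between -0.57 and -0.20, with an adjusted p from 0.000319 to 0.141. GUSB and IDS each have near-identical copies elsewhere in the genome, so their counts may depend on how shared reads were assigned, which was not measured.

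Of the cathepsins and other proteases, 5 of 11 were called higher. CTSB, a cysteine protease, was at 20133 and 23331 CP20M with DMSO and 62560 and 54307 with palbociclib in H2052, and at 16052, 10958 and 18328 against 28854, 15164 and 33347 in H2452. CTSB was at 3624, 3445 and 3873 against 7062, 3479 and 8382 in H28, and at 20904, 17222 and 15053 against 51603, 18180 and 32205 in MSTO-211H. The libraries of pair 2 in H28 and of pair 2 in MSTO-211H were nearly equal with and without palbociclib, while CTSB was higher with palbociclib in the other pairs. CTSB rose by 0.87 on the log2 scale (SE 0.14, adjusted p = 0.000211). CTSF, another cysteine protease, was at 779 and 996 with DMSO and 1835 and 1865 with palbociclib in H2052, and at 82, 85 and 95 against 291, 215 and 275 in H2452. CTSF was at 263, 172 and 286 against 409, 463 and 716 in MSTO-211H, and at 0, 0 and 4 against 0, 0 and 3 in H28. It was thus at or near 0 in H28, where no change could be measured, and it was called in each of the other lines. CTSA, the protective protein that forms a complex with GLB1 and NEU1, had a median of 3602 CP20M (1573 to 6807) with DMSO and 4175 (2039 to 17406) with palbociclib, and rose by 0.78. CTSL (0.74) and TPP1 (0.59) were the other calls among the proteases. TPP1 lay near the fold limit and lost its call in 12 of the 25 alternative settings, and CTSL in 1. CTSD (0.50), CTSZ (0.43) and CTSK (0.53) were higher at FDR under 0.05 without being called, CTSK being the least abundant of all with CTSS.

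CTSC, which activates serine proteases of granules, differed between the lines (F test among the sensitive lines, adjusted p = 0.00201). It was at 2580 and 1969 CP20M with DMSO and 1537 and 1403 with palbociclib in H2052, and at 934, 405 and 1100 against 585, 257 and 573 in H2452. CTSC was at 1978, 3529 and 2997 against 2799, 5300 and 3152 in H28, and at 2389, 2570 and 2852 against 3753, 2627 and 3236 in MSTO-211H. It was called lower in H2052 and H2452, and was higher in all 6 pairs of H28 and MSTO-211H without being called there. The call in H2052 was lost without the experiment as a block, with either other scaling, with a pseudocount of 1, with no filter and without the variance trend. The call in H2452 was lost without the block, with median-of-ratios scaling and without any single pair. CTSH (-0.15) and CTSS (0.30) did not pass over the 11 pairs. CTSS was at 29, 80 and 72 with DMSO and 136, 171 and 203 with palbociclib in H28, and at 275, 214 and 174 against 217, 105 and 157 in MSTO-211H. It was called higher in H28 alone, and in MSTO-211H it was lower with palbociclib in all 3 pairs without being called. In H2052 and H2452 it was at no more than 64 CP20M.

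All 6 membrane proteins other than CLN3 were higher at FDR under 0.05, but only MCOLN1 was called. MCOLN1, the calcium channel mucolipin, was at 371 and 211 CP20M with DMSO and 769 and 605 with palbociclib in H2052, and at 672, 520 and 687 against 1031, 606 and 1133 in H2452. MCOLN1 was at 222, 208 and 172 against 357, 273 and 357 in H28, and at 369, 176 and 236 against 709, 302 and 586 in MSTO-211H. It was higher in each of the 11 pairs, and ranges overlapped in H2452 and MSTO-211H, where pair 2 was low in both conditions. The log2 change was 0.82 (SE 0.11, adjusted p = 5.05e-05). LAMP1, the main glycoprotein of the lysosomal membrane, was at 10999 and 9249 with DMSO and 13772 and 12213 with palbociclib in H2052, and at 9180, 7314 and 9481 against 12113, 9491 and 14170 in H2452. LAMP1 was at 6150, 5316 and 3867 against 8242, 5298 and 7783 in H28, and at 6137, 3441 and 4515 against 11295, 6663 and 9487 in MSTO-211H. It was higher in 10 of 11 pairs and level in H28 pair 2. Its log2 change of 0.58 (95% confidence interval 0.37 to 0.79, adjusted p = 0.000331) fell just short of the 1.5-fold limit, and it passed that limit in 12 of the 25 alternative settings. LAMP2 had a median of 4194 CP20M (2364 to 5602) with DMSO and 5312 (3054 to 6808) with palbociclib, with a log2 change of 0.30 (adjusted p = 0.0028). CLN3 was at -0.16 (adjusted p = 0.0478), a sign that median-of-ratios scaling turned (0.01).

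Of the V-ATPase genes among the members, the 3 V0 subunits and both accessory proteins were called higher, whereas none of the 6 V1 subunits was, although all 6 were higher at FDR under 0.05. This holds for the subunits listed and for the fit as reported. Over the 25 alternative settings the call was lost in 7 for ATP6AP1, in 5 for ATP6V0E1 and in 1 for ATP6V0D1. ATP6V0A1 and ATP6AP2 kept theirs in all 25. ATP6V1A passed the limits in 2 settings and ATP6V1E1 in 1. In MSTO-211H on its own, ATP6V1D and ATP6V1E1 were called higher. Of the V-ATPase subunits outside the list, ATP6V0D2 was called, while the V0 subunits ATP6V0C (0.54), ATP6V0B (0.26), TCIRG1 (-0.02) and ATP6V0A2 (-0.07) were not. ATP6V0A1, a membrane subunit of the proton path (chromosome 17, 42458844 to 42522582, plus strand), was at 661 and 644 CP20M with DMSO and 984 and 1070 with palbociclib in H2052, and at 2063, 1349 and 1764 against 3053, 1916 and 3274 in H2452. ATP6V0A1 was at 453, 538 and 416 against 681, 849 and 1054 in H28, and at 1560, 878 and 1213 against 3728, 1568 and 2882 in MSTO-211H. It was higher in every pair, by 0.50 to 1.32 on the log2 scale, and was separated in H2052, H28 and MSTO-211H. The fitted change was 0.83 (SE 0.09, adjusted p = 1.15e-05). ATP6V0D1 had a log2 change of 0.67 and ATP6V0E1 one of 0.65, and both were highest in MSTO-211H, with means of 1.28 and 1.30. ATP6AP2 had a median of 1746 CP20M (976 to 3582) with DMSO and 3386 (1369 to 6103) with palbociclib, and rose by 0.80 (adjusted p = 5.20e-06). ATP6AP1 rose by 0.60 (adjusted p = 4.12e-05). The V1 subunits, which form the ATP-hydrolysing head and its stalks, had log2 changes from 0.19 (ATP6V1B2) to 0.45 (ATP6V1E1). The difference between V0 and V1 was not tested, since the subunits of a sector are not replicates.

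The transcripts of the regulators did not pass the test. TFEB was at 67 and 79 CP20M with DMSO and 74 and 85 with palbociclib in H2052, and at 205, 360 and 157 against 194, 259 and 144 in H2452. TFEB was at 351, 384 and 461 against 359, 306 and 433 in H28, and at 145, 102 and 81 against 112, 109 and 112 in MSTO-211H. The conditions overlapped in each line, and the log2 change was -0.06 (95% confidence interval -0.25 to 0.13, adjusted p = 0.606). The sign of TFEB turned with the scaling. TFE3 had a median of 2001 CP20M (1628 to 3750) with DMSO and 2298 (1530 to 3784) with palbociclib, with a log2 change of 0.08 (95% confidence interval -0.06 to 0.22, adjusted p = 0.331). RNA-seq does not measure where these proteins are in the cell. Of the 9 members with TCACGTG in the promoter window, 5 were called higher, with a median log2 change of 0.67 and a range from -0.16 to 0.88. Of the 27 matched members without it, 11 were called, with a median of 0.45 and a range from -0.37 to 1.27.

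**Figure D2:**
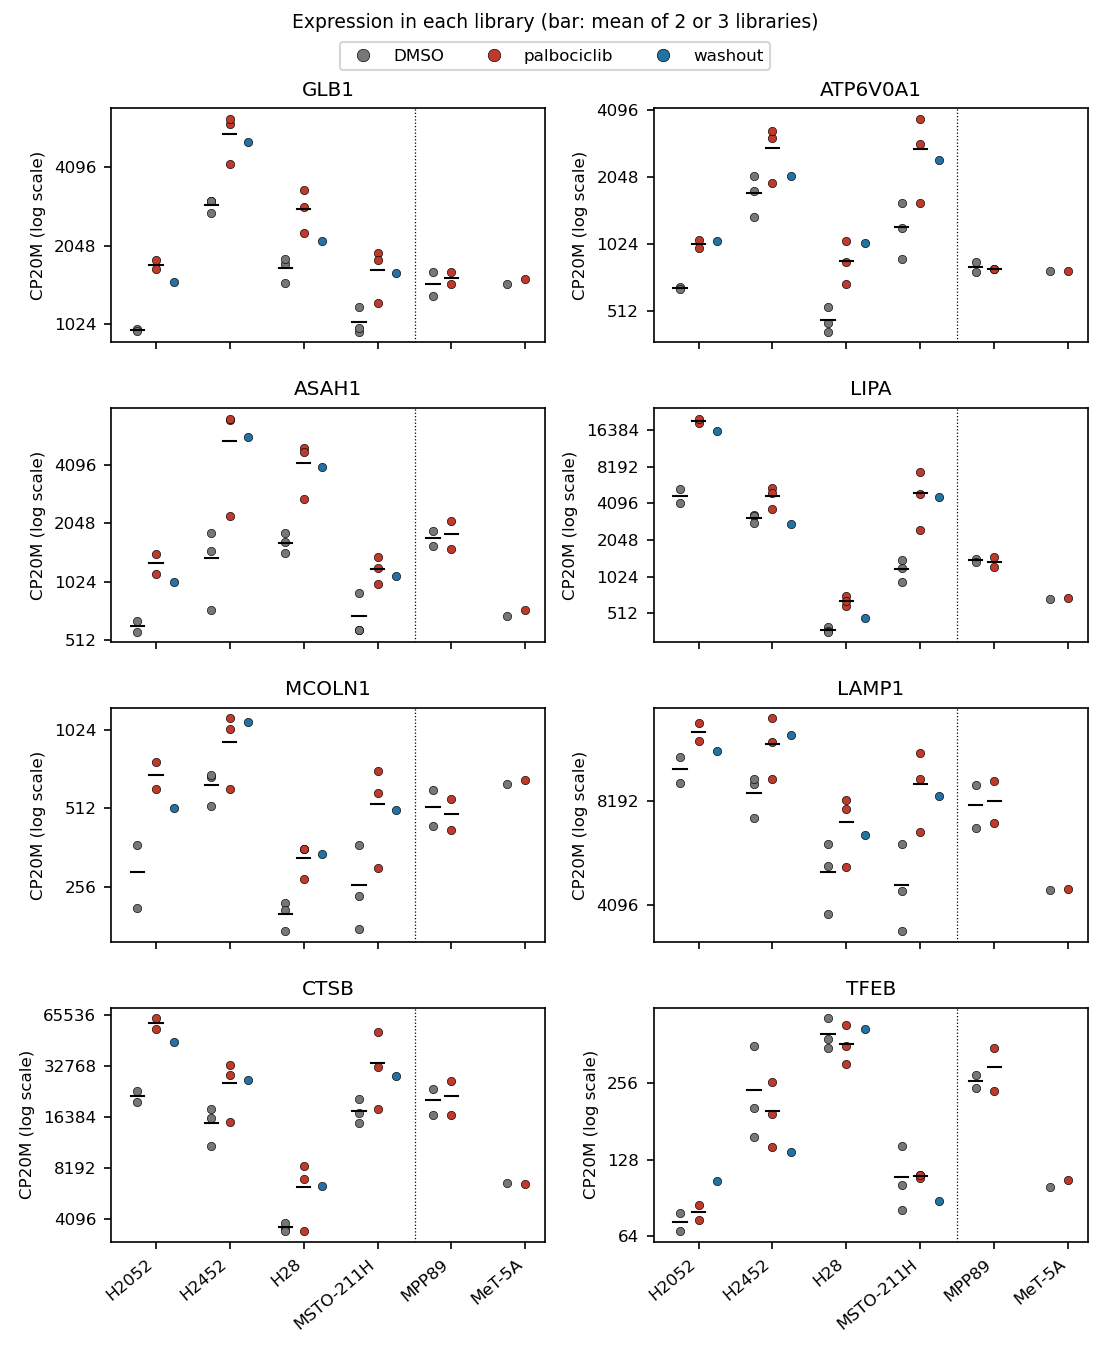
CP20M (log scale) of 8 genes in each library of the 6 lines with DMSO (grey), palbociclib (red) and after washout (blue), with bars at the mean of 2 or 3 libraries. GLB1, ASAH1 and LIPA are separated between DMSO and palbociclib within each sensitive line, TFEB overlaps in each, and MPP89 and MeT-5A (right of the dotted line) are level.

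The calls in single lines were as follows. Taken on its own, H2052 had 17 members called higher and 1 lower (4.67% and 13% of all genes), and H2452 had 20 and 1 (6.04% and 10.8%). H28 had 10 higher and 0 lower (5.89% and 7.34%), and MSTO-211H had 15 and 1 (5.90% and 7.94%). GLB1 and ATP6V0A1 were called higher in all 4 lines (0.208% of all genes). Calls in 3 lines were made for 5 members (1.16%), in 2 lines for 11 (3.36%), in 1 line for 17 (11.5%) and in none for 16 (83.8%). The 5 members called in 3 lines were CTSF, ASAH1, SMPD1, LIPA and ATP6AP2. These counts rest on 2 or 3 pairs. Without any single pair of H28 or MSTO-211H, or without pair 1 or pair 3 of H2452, no member was called, and no gene of the matrix was called higher either. In H2052, which has 2 pairs, the count was 1 with no filter (0.225% of all genes), 10 with a pseudocount of 1 (2.22%) and 0 without the trend of the variance on the mean (0%). All libraries of palbociclib lay above all DMSO libraries of the line for 37 members in H2052 (18.4% of all genes), 27 in H28 (13.6%), 22 in MSTO-211H (14.4%) and 22 in H2452 (12.2%). This held in all 4 lines for GLB1, MANBA, ASAH1, PSAP, LIPA and ATP6AP2, 6 of 51 members, against 1.56% of all genes.

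An F test of the palbociclib effect among the 4 sensitive lines called 23 of the 51 members, against 37.1% of all genes, so differences between lines were common among genes in general. Without the experiment as a block it called 6 members, against 14.7% of all genes. ATP6V0E1 was at the head of the list (adjusted p = 0.000636), with mean log2 changes of 1.30 in MSTO-211H, 0.96 in H2052, 0.47 in H2452 and -0.02 in H28. LIPA (adjusted p = 0.00109) was highest in H2052 and MSTO-211H, and NEU1 (adjusted p = 0.00677) was highest in H28. SCARB2, an integral protein of the lysosomal membrane, had a mean of 1.14 in H28 and of 0.18 to 0.38 in the other lines (adjusted p = 0.00259). NPC1, which exports cholesterol from the lysosome, was at 0.38 to 0.56 in H2052, H2452 and H28 and at -0.16 in MSTO-211H (adjusted p = 0.00528). GLB1, MANBA and ATP6V0A1 did not pass this test.

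In the resistant lines no member was called. Over the 3 pairs of MPP89 and MeT-5A, the fitted log2 changes of the members lay between -0.13 and 0.13, with a median of 0.03, and the median of all genes was 0.01. No gene of the matrix was called higher or lower (0% and 0%). At an unadjusted p under 0.05, 3 members passed (CTSD 0.11, TPP1 0.10 and MAN2B1 0.10), against 7.07% of all genes. ASAH1 was at 1873 and 1570 CP20M with DMSO and 2097 and 1511 with palbociclib in MPP89, and at 686 against 732 in MeT-5A. GLB1 was at 1619 and 1317 against 1625 and 1459 in MPP89, and at 1460 against 1530 in MeT-5A. LIPA was at 1441 and 1365 against 1479 and 1231 in MPP89, and at 673 against 683 in MeT-5A. For each of these 3 genes the values with and without palbociclib overlapped in MPP89. For all 22 members called in the sensitive lines, the upper bound of the 95% confidence interval in the resistant lines was below 1.5-fold, the highest being 0.27 on the log2 scale against a limit of 0.58. For 50 of the 51 members, both bounds were within 1.5-fold in either direction, the exception being CTSS, whose level was low. In MPP89 alone, 0 members were called and 1 (CTSD) passed an unadjusted p of 0.05, against 5.16% of all genes. With 3 pairs a small change in the resistant lines was not detectable, and the interval of GLB1, for instance, ran from -0.02 to 0.17.

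The difference between the responses of sensitive and resistant lines was tested in a fit of all 14 pairs. It was called for 9 members and in each case the sensitive lines were higher, against 1.13% of all genes called higher and 5.62% called lower. These were LIPA (1.30, adjusted p = 0.0451), ASAH1 (1.23, adjusted p = 0.0197), MANBA (0.88, adjusted p = 0.0235), MCOLN1 (0.86, adjusted p = 0.0215), ATP6V0A1 (0.85, adjusted p = 0.00963), ATP6AP2 (0.82, adjusted p = 0.00566), PSAP (0.78, adjusted p = 0.0375), GLB1 (0.70, adjusted p = 0.00964) and ATP6AP1 (0.59, adjusted p = 0.026), as differences of log2 fold changes. For 12 members the lowest of the 11 sensitive pairs was above the highest of the 3 resistant pairs, against 2.58% of all genes. The calls depended on the few resistant pairs, and those of LIPA, PSAP and ATP6AP1 were also lost without some single sensitive pairs. Without pair 1 or pair 2 of MPP89, 1 member was called (0.118% and 0.152% of all genes), and without the MeT-5A pair or without MPP89, 0 members were called (0.129% and 0%). Calls over the whole matrix were lost as well. The estimates moved less, that of GLB1 remaining between 0.65 and 0.89 and that of ASAH1 between 0.99 and 1.42 over the alternatives. The pairs entered as replicates, although they came from 4 sensitive and 2 resistant lines. All resistant pairs lasted 9 days and the sensitive pairs 9 or 10 days, and the part of duration in the difference was not tested.

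**Figure D3:**
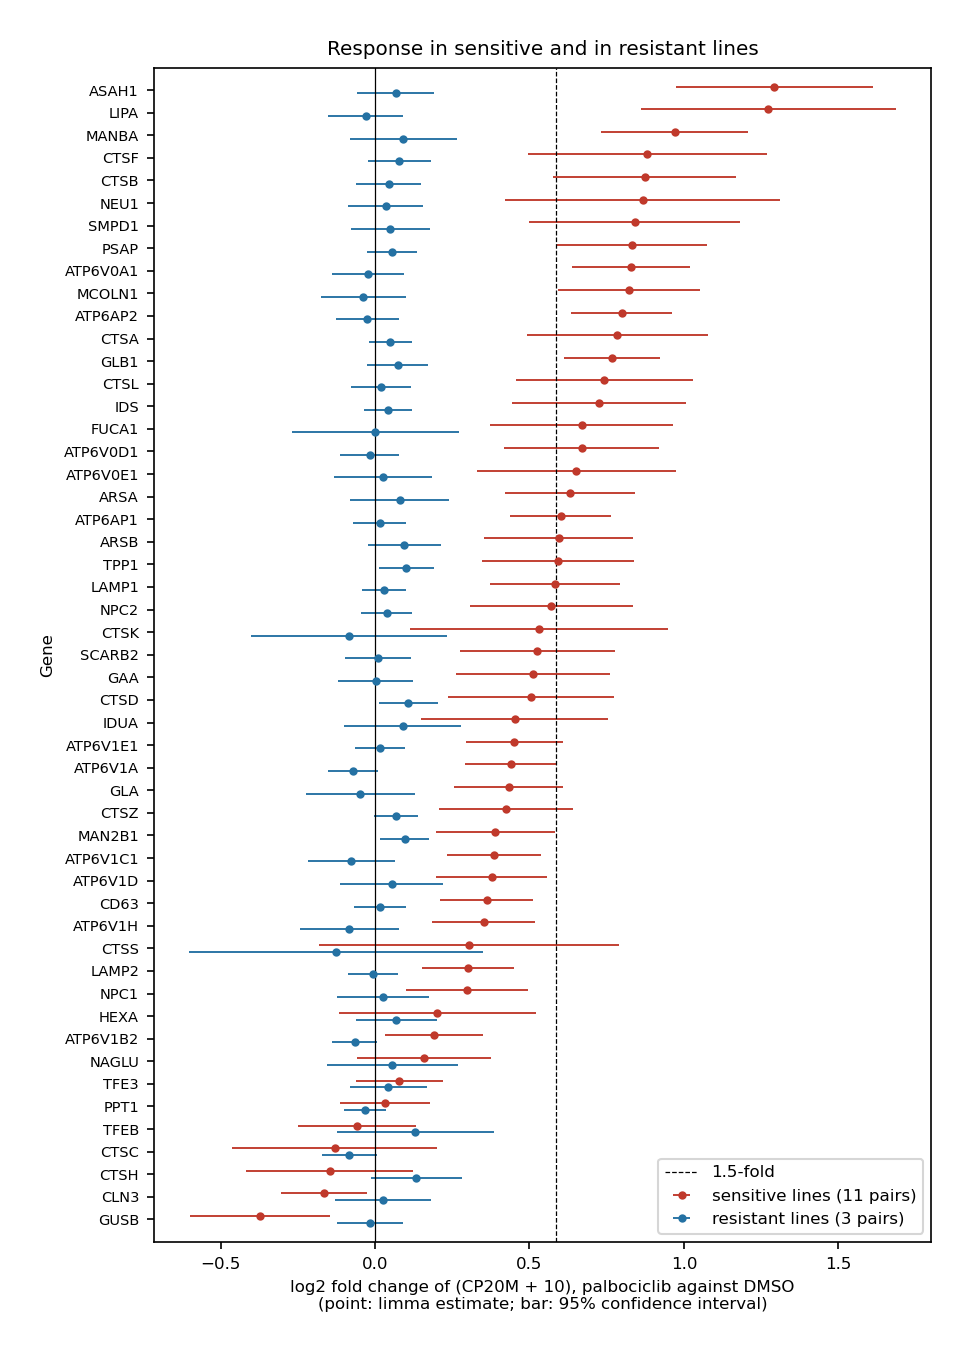
Log2 fold change of (CP20M + 10), palbociclib against DMSO, of the 51 genes in the sensitive (red, 11 pairs) and resistant lines (blue, 3 pairs), with limma estimates as points and 95% confidence intervals as bars. The dashed line marks 1.5-fold. The resistant estimates lie between -0.13 and 0.13, while 46 of the 51 sensitive estimates are above 0.

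As a share of the library, the summed CP20M of the 51 genes was 0.697% ± 0.0235 (SD, n = 2) with DMSO and 1.21% ± 0.0504 (SD, n = 2) with palbociclib in H2052. The shares were 1.05% ± 0.141 and 1.67% ± 0.382 (SD, n = 3) in H2452, 0.895% ± 0.0531 and 1.23% ± 0.290 (SD, n = 3) in H28, and 0.597% ± 0.102 and 0.940% ± 0.178 (SD, n = 3) in MSTO-211H. In MPP89 they were 0.600% ± 0.0903 and 0.617% ± 0.106 (SD, n = 2), and in MeT-5A 0.497% and 0.502% (n = 1). Within pairs the share was higher with palbociclib in all 11 sensitive pairs, by 0.0488 to 0.771 percentage points (median 0.440), the smallest difference being that of H28 pair 2. It was also higher in the 3 resistant pairs, by 0.00512 to 0.0289 percentage points. A few abundant members such as PSAP, CTSB and CTSD weigh most in this sum, and their order differed between lines.

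Washout was compared in 4 experiments, 1 per sensitive line, each with a DMSO, a palbociclib and a washout library of the same experiment. The comparisons share their libraries, so their values are given next to each other. In these experiments palbociclib raised 25 members and lowered none (5.30% and 13.3% of all genes). After 48 h of washout, no member was called higher or lower than with palbociclib (1.40% and 0% of all genes). Of the 51, 41 were below the palbociclib value, with a median log2 change of -0.15 against 0.09 over all genes. At an unadjusted p under 0.05, 5 members passed, all lower after washout, which were GAA (-0.43), MAN2B1 (-0.34), ARSA (-0.32), CTSB (-0.29) and GLB1 (-0.27), against 13% of all genes. Against DMSO, 12 members were called higher and none lower (2.81% and 2.95% of all genes). These were ASAH1, MCOLN1, MANBA, SMPD1, CTSA, ATP6V0A1, CTSB, PSAP, ARSB, ATP6V0D1, GLB1 and LAMP1.

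ASAH1 went from 568 CP20M with DMSO to 1130 with palbociclib and 1025 after washout in H2052, and from 1484 to 7100 and 5722 in H2452. ASAH1 went from 1442 to 4782 and 3977 in H28, and from 578 to 1370 and 1092 in MSTO-211H. In each line the washout value lay between those of DMSO and palbociclib, nearer to palbociclib. Its log2 changes were 1.55 for palbociclib against DMSO, -0.26 for washout against palbociclib and 1.29 for washout against DMSO (adjusted p = 0.000648, 0.627 and 0.006). GLB1 went from 969 to 1672 and 1487 in H2052, and from 3038 to 6295 and 5105 in H2452. GLB1 went from 1470 to 2888 and 2136 in H28, and from 991 to 1804 and 1617 in MSTO-211H. It also lay in between in each line, with log2 changes of 0.91, -0.27 and 0.65 (adjusted p = 0.000221, 0.168 and 0.00432). MCOLN1 had values of 1.12, -0.14 and 0.98, MANBA of 1.18, -0.30 and 0.88, SMPD1 of 1.13, -0.27 and 0.85, and CTSA of 1.06, -0.23 and 0.83. LIPA was less uniform, with a washout value of 16296 CP20M in H2052 against 5408 with DMSO, and of 2770 in H2452 against 2826. Its log2 change against DMSO was 0.96 (adjusted p = 0.0622). GAA, the acid α-glucosidase, had values of 0.52, -0.43 and 0.09, and MAN2B1, an α-mannosidase, of 0.39, -0.34 and 0.06. TFEB had values of 0.08, -0.03 and 0.04, and none of them passed. By line, the member median of washout against DMSO was 0.70 in MSTO-211H, 0.40 in H28, 0.37 in H2052 and 0.30 in H2452. The count against DMSO was 5 without MSTO-211H (0.455% of all genes), 8 without H2052 (0.612%), 10 without H2452 (1.33%) and 10 without H28 (1.94%).

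**Figure D4:**
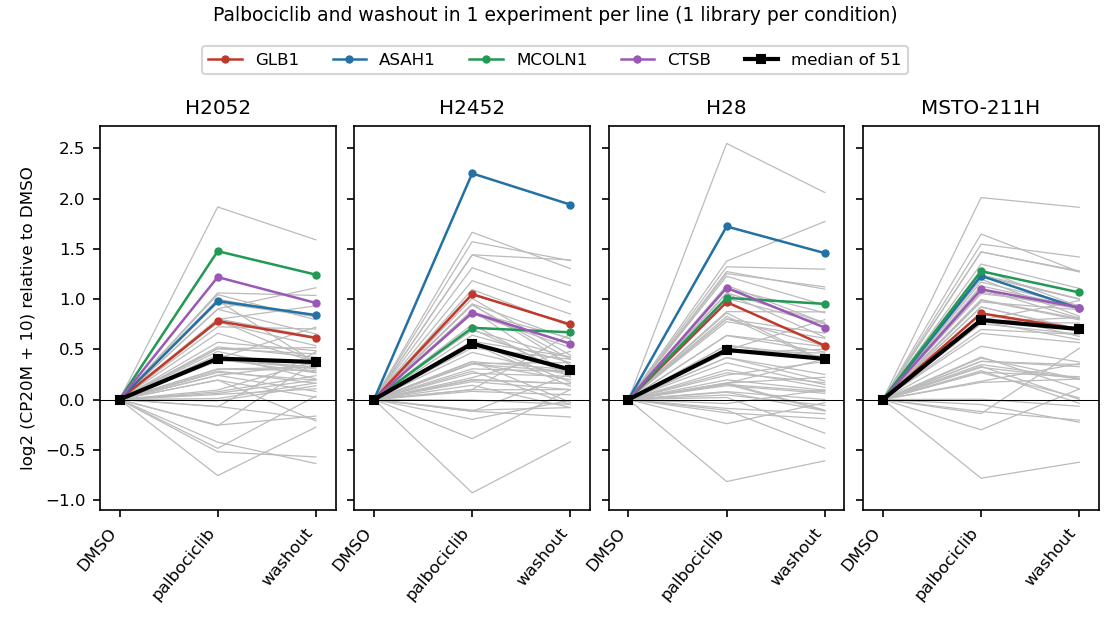
Log2 (CP20M + 10) relative to the DMSO library of the same experiment, for DMSO, palbociclib and washout in the 4 sensitive lines, with 51 genes in grey, 4 of them in colour and the median in black. The median after washout is at 0.30 to 0.70, below its value with palbociclib in each line and above DMSO.

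Without palbociclib, in the DMSO libraries, the lines differed in nearly all members, 50 of 51 by an F test among the 5 MPM lines, against 92.2% of all genes. In the order of levels that follows, the control level is the mean of the DMSO libraries, and for MeT-5A the mean of its DMSO and its untreated library. H2452 had the highest control level of the 6 lines for 17 members and H28 the lowest for 22. Per kilobase of exon, and averaged over the 6 lines, PSAP (7928 CP20M per kb), CTSD (3808), CD63 (2591), CTSB (1357) and PPT1 (1320) were the most abundant. CTSD was at 11755 CP20M per kb in H28 and 686 in MPP89. CTSB was at 346 in H28 and 2064 in H2052. H28 was thus the highest line for CTSD and the lowest for CTSB. GLB1 was at 677 in H2452, 388 in H28, 339 in MPP89, 318 in MeT-5A, 241 in MSTO-211H and 225 in H2052. The control values of H28 and MPP89 overlapped, as did those of MPP89 and MeT-5A and those of MSTO-211H and H2052.

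Other genes of the organelle were counted in lists that are not part of the 51. Of 27 further lysosomal hydrolases and activators tested, 11 were called higher and 0 lower over the sensitive pairs, among them GM2A (log2 1.28) and PLA2G15 (1.11). Of 13 further V-ATPase subunits, 1 was called higher, ATP6V0D2 (1.73), which was higher in all 11 pairs, by 0.32 to 4.58. Its mean was 3.33 (SD 1.67) in H2452, 1.26 in MSTO-211H, 1.23 in H2052 and 0.95 in H28. Its levels are not given here, and whether they were near 0 with DMSO was not examined. Of 19 further membrane proteins and transporters, 3 were called higher, SLC17A5 (0.92), GPR137B (0.79) and OSTM1 (0.63). Of 20 genes that sort enzymes to lysosomes, 3 were called higher, GNPTAB (0.95), GNPTG (0.69) and IGF2R (0.62), which make or bind the mannose 6-phosphate tag, and 1 lower, CLN6 (-0.59). Of 20 genes listed under mTORC1 and nutrient sensing, 1 was called higher, TFEC (1.19), a transcription factor related to TFEB. TFEC was higher in 9 of 11 pairs, with means of 2.49 in MSTO-211H, 1.62 in H28, 0.61 in H2052 and -0.14 in H2452. Of 24 autophagy genes, 6 were called higher, led by GPNMB (1.42), GABARAPL1 (1.08) and WIPI1 (0.89). These shares stand beside 5.58% higher and 9.37% lower among all genes. None of the genes in these lists was called in the resistant lines, where 0% of all genes were called higher and 0% lower.

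Among markers of other cell types, the 7 of macrophages and leukocytes summed to 27 to 463 CP20M in the sensitive DMSO libraries and 23 to 1207 with palbociclib. The upper values came from CD14 in H2452, at 133, 361 and 176 with DMSO and 349, 1130 and 284 with palbociclib. It was thus higher with palbociclib in each pair of that line. CD14 was at no more than 16 in the other sensitive lines, and TYROBP and AIF1 were at or near 0 in every library. The 3 endothelial markers summed to 3 to 150 with DMSO and 12 to 68 with palbociclib. The 4 proliferation markers summed to 5768 to 21599 with DMSO, 518 to 5262 with palbociclib and 8353 to 16173 after washout in the sensitive lines. In the resistant lines they summed to 20537 to 29315 with DMSO and 21677 to 29818 with palbociclib. Within the washout experiments the sum went from 10650 with DMSO to 1675 with palbociclib and 13596 after washout in H2052, and from 16737 to 518 and 16173 in H2452. It went from 21525 to 3376 and 9502 in H28, and from 14668 to 2265 and 8353 in MSTO-211H. After washout the sum was above the palbociclib value in each line, above that of DMSO in H2052 and below it in H2452, H28 and MSTO-211H. The part of proliferation and of the other markers in the changes was not tested. The 7 mesothelial markers summed to 6038 to 52538 in the sensitive DMSO libraries and 24277 to 27517 in the resistant ones, sums to which the keratins KRT18 and KRT19 contributed most. MSLN, CALB2 and PDPN were at or near 0 in H28, PDPN and KRT19 in MSTO-211H, KRT19 in MPP89, and WT1 and KRT19 in MeT-5A. UPK3B was also low, at 0 to 11 CP20M in H2052 and 2 to 26 in MSTO-211H, as was PDPN in MPP89 at 12 to 20. In bulk RNA, fewer cells of a type and less RNA per cell cannot be told apart.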

How the data were processed

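RNA was sequenced as paired ends in 33 libraries. Per the methods of the study, the authors aligned reads to GRCh38 with STAR and counted them per Ensembl 90 gene with HTSeq. The submitters' processing notes name Trimmomatic (0.36), STAR (2.5.3) and HTSeq (0.9.1). The strand setting was not given in the sources used here. The deposited values are a score, counts scaled to 20000000 reads (CP20M) that the authors scaled by library size and that appear as whole numbers, so no count test was run.

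A gene was tested if 1 or more libraries reached 100 CP20M (17803 of 58302 genes). Differences of log2(CP20M + 10) were fitted with limma (3.58.1, R 4.3.3), with the experiment as a block and a trend of the variance on the mean. P-values were adjusted by the Benjamini-Hochberg method over all genes tested. A call needed an FDR under 0.05 and a fold change above 1.5 or below 1/1.5. The block follows the study, which paired treated and control cells, and same-numbered libraries deviated together (r = 0.18 to 0.78). Samples were grouped by their labels. Replicate libraries shared at most 4.33% equal values. The scripts were tested on simulated data. The members and lists were chosen with earlier results of these data known. By the rule for named genes, library values or their ranges were given for LAMP1, LAMP2, GLB1, TFEB, TFE3, the 6 largest called rises and the members called in the class or washout tests (at most 6 each), and the 3 largest calls of each other list were named, except 1 gene that is not reported here. Library values of GUSB, CTSC and CTSS were added after their values were seen. Promoters came from RefSeq (GRCh38.p14) and gene positions from GENCODE 44. Exons of 12 members overlap another gene on the same strand and those of 19 on the opposite strand. Alternatives covered the pseudocount (1 and 50), filter, scaling, block, variance trend and left-out pairs or lines.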

Additional observations from a re-analysis of the deposited data

Results flagged for a closer look

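The response to palbociclib differed between sensitive and resistant lines for 9 genes, by the test of the difference itself (limma, FDR under 0.05 and above 1.5-fold). The differences of log2 fold changes were LIPA (1.30), ASAH1 (1.23), MANBA (0.88), MCOLN1 (0.86), ATP6V0A1 (0.85), ATP6AP2 (0.82), PSAP (0.78), GLB1 (0.70) and ATP6AP1 (0.59), all higher in the sensitive lines. They rest on 3 resistant pairs, and without 1 of these pairs 0 or 1 gene was called. The calls of LIPA, PSAP and ATP6AP1 were also lost without some single sensitive pairs.

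The response also differed among the 4 sensitive lines for 23 genes, by an F test at FDR under 0.05, which called 37.1% of all genes. The range of the mean log2 fold change over the lines was widest for CTSS (1.91), NEU1 (1.53), CTSK (1.53), CTSF (1.5), LIPA (1.46) and ATP6V0E1 (1.33). It was intermediate for HEXA (1.22), SMPD1 (1.19), CTSC (1.13), ASAH1 (1.12), IDS (1.03), NPC2 (1.03), ATP6V0D1 (1.00) and SCARB2 (0.96). It was narrower for GUSB (0.87), ARSB (0.87), NAGLU (0.76), NPC1 (0.72), CTSZ (0.69), ATP6V1D (0.68), ATP6AP2 (0.65), TFE3 (0.56) and ATP6V1E1 (0.48). CTSF was at 0 to 4 CP20M in H28, so its range reflects a line in which it was hardly expressed. GUSB and IDS have near-identical copies elsewhere in the genome, and reads shared with them were not measured here.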

How the results depend on the processing

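Over the 11 sensitive pairs, the count of 22 genes called higher stayed between 18 and 33 under all 25 alternatives, while the share of all genes ran from 2.16% to 9.25%. It was between 19 and 23 when a pair was left out (4.86% to 5.87%). Over the 9-day pairs alone it was 19 (3.68%) and over the 10-day pairs alone 19 (2.95%), subsets chosen after seeing the data. Of the 22 genes, 11 were called under all 25. In the resistant lines, in MPP89 and for washout against palbociclib, 0 were called throughout. Among all genes, 0% were called higher in the resistant lines and at most 0.0203% in MPP89. For washout against palbociclib 0.413% to 1.61% were called higher, and 0% to 0.584% with an experiment left out. At most 0.00562% were called lower there. Under median-of-ratios scaling the log2 change turned positive for CLN3 (0.0068), CTSC (0.042), CTSH (0.021) and TFEB (0.10), and for TFEB also under upper-quartile scaling (0.050). Without H2452, CTSC was at 0.10, HEXA at -0.049 and TFEB at 0.0012. CTSS was at -0.12 without H28. Without MSTO-211H, PPT1 was at -0.013 and TFE3 at -0.018. With single pairs left out, PPT1 ranged from -0.018 to 0.060. TFEB was at 0.078 over the 10-day pairs, a subset chosen after seeing the data. In the fit over 11 pairs none of these genes was called.

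Without the replicate block, the genes called higher were 10 in H2452 (20 with it), 5 in MSTO-211H (15) and 4 for the difference between sensitive and resistant lines (9), beside 3.65%, 4.77% and 0.798% of all genes. Those called lower were 0 in H2052 (11.8%) and 0 in H2452 (8.72%), with 1 each as reported, and 6 differed among lines in either direction (14.7%, 23 as reported). In H2052 the 17 called higher became 10 with a pseudocount of 1 (2.22% of all genes), 1 with no filter (0.225%), 32 with median-of-ratios scaling (9.55%), 26 with upper-quartile scaling (7.4%) and 0 without the variance trend (0%). The 1 called lower in H2052 (CTSC) became 0 under each of these 5 settings (0% to 5.73% of all genes), and 2 with the filter within the fit (22.9%) or with all 14 pairs in 1 fit (20.8%), shares of 51 that lie below those of all genes. Median-of-ratios scaling gave 32 higher (10.1% of all genes) and 0 lower in H2452, 18 for the difference between classes (2.92%), 38 for palbociclib in the washout experiments (9.92%, 25 as reported) and 20 for washout against DMSO (4.10%, 12 as reported). Upper-quartile scaling gave 31 in H2452 (8.93%) and 14 for the difference between classes (2.11%). Under both scalings the shares of all genes called higher rose with the member counts. With the filter within the fit, and with all pairs in 1 fit, H28 had 17 and 17 (10 as reported, with 8.75% and 8.36% of all genes), and MSTO-211H 23 and 25 (9.29% and 10.6%). With no filter MSTO-211H had 9 (1.30%) and the difference between classes 5 (0.223%). That difference had 15 without H28 (2.04%) and 0 without MPP89 (0%). Leaving out replicates gave 0 to 16 higher (0% to 3.11% of all genes) and 0 to 0 lower (0% to 5.75%) in H2452, 0 to 0 higher in H28, and 0 to 0 higher and 0 to 0 lower in MSTO-211H, the last 2 lines having 0% of all genes as well. It gave 0 to 12 for the difference between classes (0.118% to 1.49%), 19 to 27 for differences among lines (25.8% to 38.7%), 19 to 24 higher (3.28% to 5.26%) and 0 to 1 lower (10.3% to 13.5%) for palbociclib in the washout experiments, and 5 to 10 for washout against DMSO (0.455% to 1.94%, with 5 without MSTO-211H). Fewer pairs enter those fits. For the other settings the cause was not tested. Depth limits low genes such as CTSS and CTSK, and 2 or 3 pairs limit the counts of single lines.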
